A study of Mus musculus with 4 samples.

Results

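Mast cells and basophils are granulocytes that store histamine, proteases and heparin-like proteoglycans and release them when IgE bound to their high-affinity receptor meets its antigen. The 10 genes described here are Mcpt8, Prss34, Cpa3, Cma1 and Tpsb2 (granule proteases), Fcer1a and Ms4a2 (chains of the IgE receptor), Il1rl1 (the receptor for interleukin-33), Hdc (the enzyme that makes histamine) and Mitf (a transcription factor that mast cells need to develop). They were taken as every probe that the array annotation assigns to 1 of these symbols, which gave 14 of the 55681 probes on the array, and 10 of its 24618 named genes. Il1rl1 had 3 probes, Tpsb2 and Mitf had 2 each, and each probe was read on its own. In bone marrow, transcripts of these genes appear as progenitors commit to the mast cell and basophil branch, and Cpa3, Hdc and the receptors Kit and Il3ra are also known from less committed progenitors.

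Lethally irradiated mice received E14.5 fetal liver cells of 1 of 4 genotypes on a C57B6 background, and LSK cells (lineage-negative, Sca-1 and c-Kit positive), the bone marrow fraction that holds stem cells and multipotent progenitors, were later sorted from these recipients. The TET2KD cells had TET2, which oxidises methylated cytosine in DNA, knocked down and were collected 10 weeks after transplantation. The JAK2V617F cells carried the activated kinase of myeloproliferative neoplasms as a transgene and were collected at 16 weeks, the double mutant cells carried both lesions and were collected at 13 weeks, and the WT cells carried neither and were collected at 16 weeks. Each genotype had 5 mice and 1 array, and the labels do not say whether the 5 mice were pooled. All groups share the irradiated host, the fetal origin of the graft and the sort, and time after transplantation and genotype cannot be told apart except between JAK2V617F and WT. The 4 arrays lay on 1 slide that was scanned in 1 session.

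With 1 array per genotype there is no replicate and no test, so all values describe these arrays. A level is the background-subtracted signal of a probe as a percentage of that array's 75th percentile (P75), which was 120 in TET2KD, 130 in JAK2V617F, 144 in the double mutant and 128 in WT. The error beside a level is the scanner software's error for the spot. A probe entered a comparison when it was well above background on at least 1 of the 2 arrays, and "higher" and "lower" mean a difference of at least 2-fold. Where the dim side was not well above background it was set to the array's lowest reliable signal (14.47% of P75 in TET2KD, 10.8% in JAK2V617F, 10.9% in the double mutant and 12.4% in WT) or to its own signal if that was higher, and the fold is then a lower bound. On the knock-down check, Tet2 stood at 27.3% of the WT signal in TET2KD and 60.3% in the double mutant on 1 probe. On another it stood at 56.3% and 61.6%. JAK2V617F, which has no knock-down, stood at 73.1% and 105% of WT on these probes. On the first probe it was thus also below WT, so the low double mutant signal there cannot be ascribed to the knock-down alone. The remaining Tet2 probe was well above background in the double mutant alone. Jak2 lay between 95.8% and 110% of WT in the mutants. Kit, Ly6a (which encodes Sca-1) and Cd34 were well above background on all arrays. Fewer cells of a type and less RNA per cell cannot be told apart in these bulk samples.

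The promoters of 3 of the proteases are shown because their levels had the clearest and least similar patterns over the arrays. The windows run from 250 bases before to 50 bases after the RefSeq start site (GRCm38.p6), 5′ to 3′ on the gene's strand, and capitals mark matches to the GATA letters (AGATAA or TGATAA, and either of these ending in G as AGATAG or TGATAG) or the E-box letters (CACATG or CACGTG) on either strand. Cpa3 (chr3:20242132-20242431, minus strand) has AGATAA 46 bases before its start. Prss34 (chr17:25298144-25298443, plus strand) has an E-box, read as CATGTG on this strand, 100 bases before its start and AGATAA 31 bases before it. Mcpt8 (chr14:56085148-56085447, minus strand) has no match.
Cpa3 promoter: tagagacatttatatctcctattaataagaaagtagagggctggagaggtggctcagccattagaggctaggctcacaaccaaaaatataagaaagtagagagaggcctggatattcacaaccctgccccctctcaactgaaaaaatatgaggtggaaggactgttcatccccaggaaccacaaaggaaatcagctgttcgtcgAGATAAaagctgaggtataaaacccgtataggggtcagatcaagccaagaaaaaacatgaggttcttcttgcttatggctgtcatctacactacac
Prss34 promoter: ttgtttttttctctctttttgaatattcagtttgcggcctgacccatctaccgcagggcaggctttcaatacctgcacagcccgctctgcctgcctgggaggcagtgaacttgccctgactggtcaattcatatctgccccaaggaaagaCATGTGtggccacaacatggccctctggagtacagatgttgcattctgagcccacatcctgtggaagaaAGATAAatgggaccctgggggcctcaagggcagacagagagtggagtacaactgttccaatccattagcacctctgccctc
Mcpt8 promoter: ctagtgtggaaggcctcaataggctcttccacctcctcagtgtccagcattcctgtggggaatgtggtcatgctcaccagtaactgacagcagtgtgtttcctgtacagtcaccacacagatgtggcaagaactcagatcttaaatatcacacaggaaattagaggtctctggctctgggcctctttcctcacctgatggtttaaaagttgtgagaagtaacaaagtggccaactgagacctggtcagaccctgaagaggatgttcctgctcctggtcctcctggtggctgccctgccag

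The table of promoters held 12 windows for 9 of the 10 genes, all but Tpsb2. Il1rl1 had 2 windows and Mitf had 3, so these genes had more than 1 place for a match and count more than once among the windows. GATA letters, the core read by GATA1 and GATA2, were found in 10 of the 12 windows and 8 of the 9 genes, against 29.8% of all 32851 promoters of the same length. E-box letters of the kind Mitf binds were found in 2 of the 12 windows, those of Fcer1a and Prss34, against 20.4% of all promoters. The STAT letters TTCNNNGAA were in 0 of the 12 windows, against 8.30% of all promoters. Matches overlap nowhere in the windows shown, and a match is a stretch of letters, not a measured site.

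Of the probes, 5 of 14 were well above background in TET2KD (35.7%), 9 in JAK2V617F (64.3%), 7 in the double mutant (50%) and 6 in WT (42.9%). Over all probes the shares were 49.3%, 54.4%, 53.9% and 51.4%. Hdc, both Tpsb2 probes and the Mitf probe at base 2038 of its transcript were detected on all 4 arrays. Ms4a2, Cma1 and the Il1rl1 probes at 2563 and 2825 were detected on none, so the beta chain of the IgE receptor and the mast cell chymase, which are defining transcripts of mature mast cells, were not well above background in any LSK sample.

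**Figure D1:**
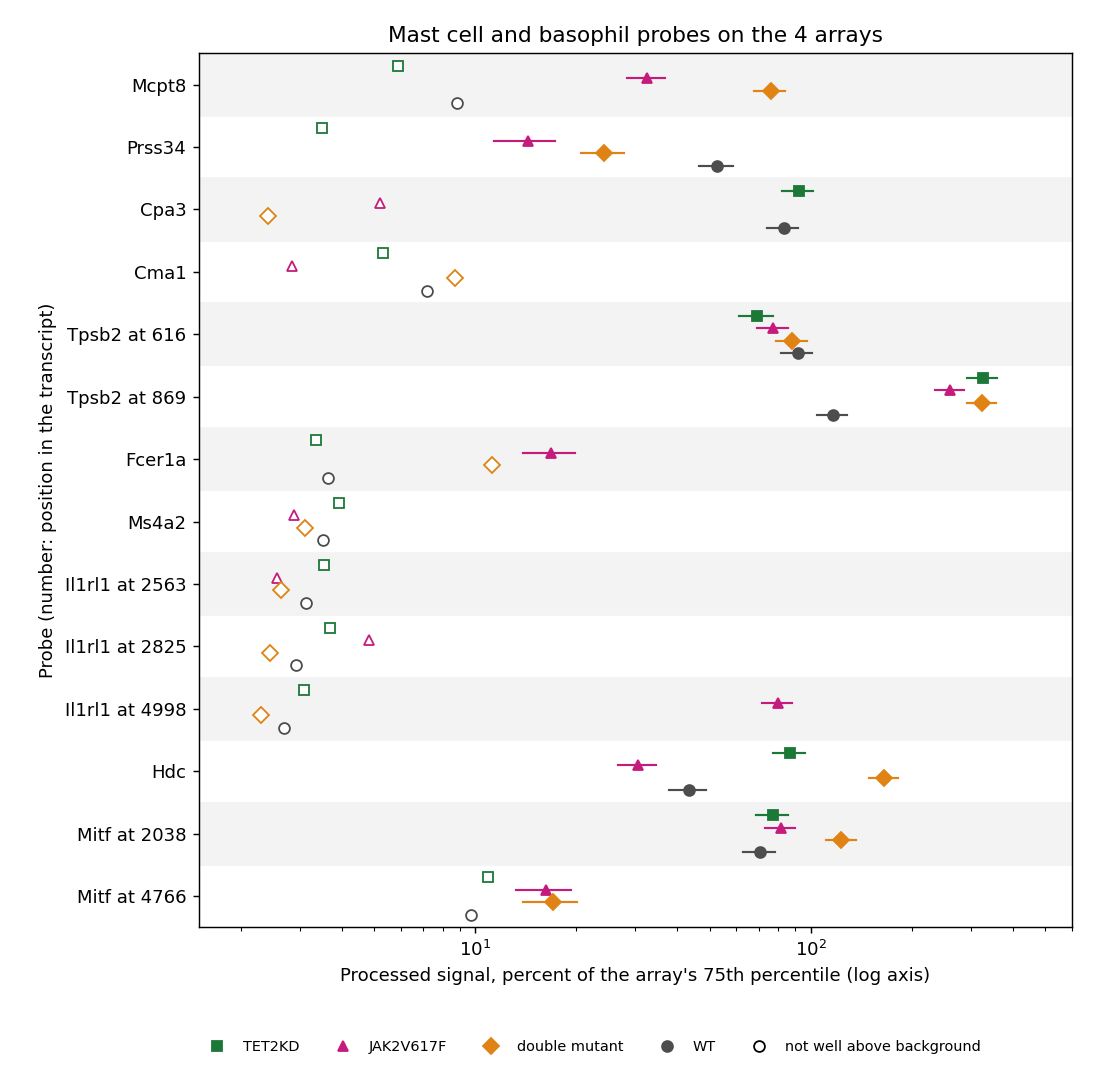
Processed signal of each of the 14 probes on the 4 arrays, as percent of the array's 75th percentile on a log axis, with bars for the scanner software's error on filled symbols and open symbols for probes not well above background. Mcpt8 is highest in the double mutant, Cpa3 is detected in TET2KD and WT, and Il1rl1 at 4998 is detected in JAK2V617F.

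Mcpt8, the protease that marks mouse basophils, was detected in the arrays that carried JAK2V617F. Its probe (mm9 chr14:56702300-56702674, minus strand) has 60 bases spread over 375 genomic bases, so it crosses an exon junction and reads spliced RNA.
Mcpt8 probe: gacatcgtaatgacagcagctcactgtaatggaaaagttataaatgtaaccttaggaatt
The level was 5.88% of P75 in TET2KD, not well above background, 32.4 ± 4.19% in JAK2V617F, 75.9 ± 8.08% in the double mutant and 8.85% in WT, again not well above background. The double mutant thus stood above JAK2V617F, and both stood above the remaining arrays, whose signals differed by less than their errors. Mcpt8 was at least 6.11-fold higher in the double mutant than in WT and at least 5.24-fold higher than in TET2KD. It was at least 2.61-fold higher in JAK2V617F than in WT. The double mutant exceeded JAK2V617F 2.34-fold, a log2 difference of 1.23 ± 0.24. With normexp background correction the 4 log2 differences shrank to 0.97, 0.88, 0.42 and 0.54, in the same order, and each was under 2-fold.

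Prss34, a tryptase-like protease that mouse basophils also store, ran a different course and was lower in every mutant than in WT. Its level (probe at mm9 chr17:25436942-25437001, plus strand) was 3.50% of P75 in TET2KD, not well above background, 14.3 ± 2.93% in JAK2V617F, 24.3 ± 3.57% in the double mutant and 52.6 ± 6.12% in WT. It was at least 3.64-fold lower in TET2KD than in WT, 3.68-fold lower in JAK2V617F (log2 difference -1.88 ± 0.34) and 2.17-fold lower in the double mutant (-1.12 ± 0.27). The double mutant stood 1.69-fold above JAK2V617F (0.76 ± 0.36) and at least 1.68-fold above TET2KD, which is short of 2-fold. The basophil proteases Mcpt8 and Prss34 therefore ranked the arrays differently: WT had the highest Prss34 signal, and its Mcpt8 signal was not well above background. With normexp the Prss34 differences from WT shrank under 2-fold, with TET2KD at -0.57, JAK2V617F at -0.68 and the double mutant at -0.53.

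Cpa3, the carboxypeptidase that mast cells and their progenitors pack into granules, split the arrays by JAK2V617F. Its level (probe at mm9 chr3:20115674-20115733, minus strand) was 91.9 ± 9.75% of P75 in TET2KD, 5.21% in JAK2V617F, 2.40% in the double mutant and 83.0 ± 8.76% in WT. Neither array with JAK2V617F was well above background, while TET2KD and WT differed by 0.15 ± 0.22 on the log2 scale, less than the scanner error. Cpa3 was at least 7.71-fold lower in JAK2V617F than in WT, at least 7.59-fold lower in the double mutant than in WT and at least 8.41-fold lower in the double mutant than in TET2KD. With normexp these differences were -1.23, -1.27 and -1.37 on the log2 scale, still more than 2-fold.

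Markers of eosinophils, the neighbouring granulocyte branch, moved in the same direction as Cpa3 in these comparisons. Summed over the 10 probes of 9 eosinophil genes, the signal was 20901% of P75 in TET2KD, 3415% in JAK2V617F, 6984% in the double mutant and 28940% in WT, of which Prg2 (major basic protein) alone gave 14290%, 2263%, 4896% and 16869%. Of the 9 probes that entered, 7 were lower and 1 was higher in JAK2V617F than in WT, against 16.4% and 16.1% of all probes. In the double mutant 7 were lower than in WT and 0 higher (all probes 16.7% and 16.3%). Against TET2KD, 6 were lower in the double mutant and 2 higher (16.9% and 15.6%). In TET2KD against WT, where Cpa3 differed by 0.15, 4 eosinophil probes were lower and 0 higher (17.0% and 17.6%), with a median log2 difference of -0.94. Epx (eosinophil peroxidase), which was not among those lower in TET2KD, had 2200% of P75 in TET2KD, 141% in JAK2V617F, 300.3% in the double mutant and 2545% in WT. The arrays with JAK2V617F were thus low for Cpa3 and for most eosinophil genes alike. However, 6 of 9 eosinophil probes were higher in the double mutant than in JAK2V617F (13.4% of all probes), while Cpa3 was detected in neither. Ccr3, the eotaxin receptor of mature eosinophils, was well above background on no array. The part of this shift in the Cpa3 result was not tested.

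**Figure D2:**
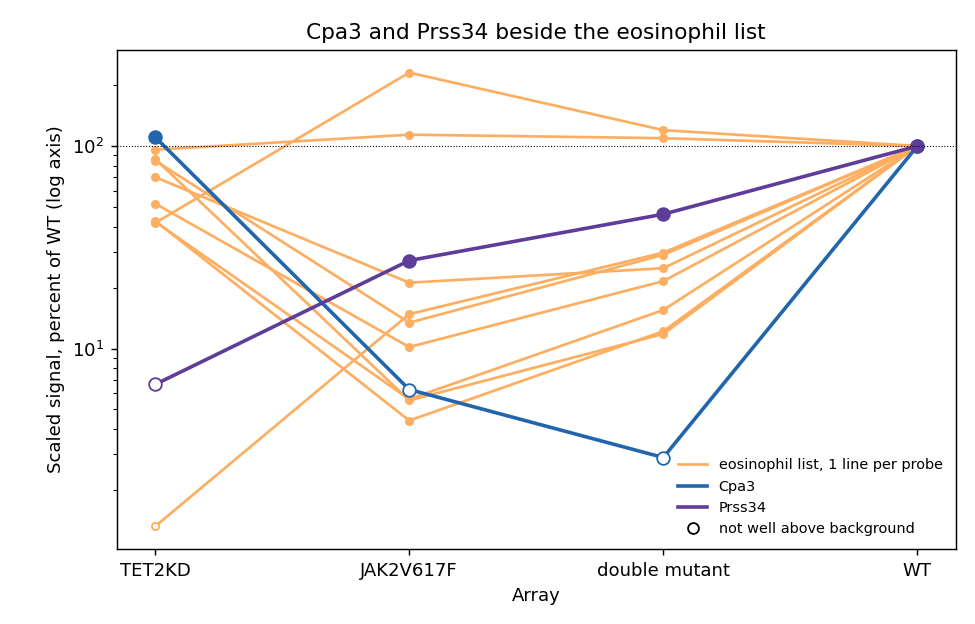
Scaled signal of Cpa3, of Prss34 and of the 9 eosinophil probes detected in WT, each as percent of its own WT signal on a log axis, with open symbols for signals not well above background. Cpa3 and 7 of the eosinophil probes are below 50% of WT in JAK2V617F and in the double mutant, and Prss34 is below 50% of WT in all mutants, in TET2KD without being well above background.

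Tpsb2, a mast cell tryptase, was detected on all arrays, and its 2 probes gave different answers. The probe at base 869 of the transcript (mm9 chr17:25504819-25504878, plus strand) read 326 ± 32.8% of P75 in TET2KD, 260 ± 26.2% in JAK2V617F, 324 ± 32.5% in the double mutant and 116 ± 12.05% in WT. Each mutant was above WT on it, by 2.80-fold in TET2KD (log2 difference 1.49 ± 0.21), 2.24-fold in JAK2V617F (1.16 ± 0.21) and 2.79-fold in the double mutant (1.48 ± 0.21). The probe at base 616 (mm9 chr17:25504493-25504552), which starts 326 genomic bases upstream on the same transcript, is shown because it did not follow.
Tpsb2 probe at 616: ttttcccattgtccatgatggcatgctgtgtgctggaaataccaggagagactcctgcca
It read 69.1 ± 7.94% of P75 in TET2KD, 77.4 ± 8.24% in JAK2V617F, 87.9 ± 9.31% in the double mutant and 91.4 ± 9.78% in WT, so that every mutant was slightly below WT, by -0.40 ± 0.23, -0.24 ± 0.22 and -0.06 ± 0.22 on the log2 scale. None of these exceeds 2 scanner errors, so a difference of at least 2-fold was seen on 1 of the 2 Tpsb2 probes alone. Whether either probe also binds related transcripts was not tested, and the probe of the sister tryptase Tpsab1 was well above background on no array. With normexp the difference of JAK2V617F from WT at base 869 was 0.89, under 2-fold.

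Cma1 (probe at mm9 chr14:56561491-56562550, minus strand) stayed between 2.84% of P75 in JAK2V617F and 8.68% in the double mutant, with 5.30% in TET2KD and 7.20% in WT, all not well above background. Of the other mast cell and basophil proteases, Mcpt1, Mcpt2, Mcpt4, Mcpt9, Tpsab1 and Tpsg1 were well above background on no array, and 2 of 8 were detected. Ctsg (cathepsin G), which neutrophil precursors also make, read 2258% of P75 in TET2KD, 6021% in JAK2V617F, 7441% in the double mutant and 614% in WT. Gzmb (granzyme B), known mainly from cytotoxic lymphocytes, read 63.8% in TET2KD, 127% in JAK2V617F, 31.9% in the double mutant and 6.36% in WT, where it was not well above background. For Ctsg, as for Mcpt8, the arrays with JAK2V617F stood above the others. The double mutant and JAK2V617F differed in Ctsg by less than 2 scanner errors, so their order was not resolved, unlike that of Mcpt8. Over all probes, 16.1% to 17.6% were higher and 16.4% to 17.0% lower in a mutant than in WT. The neutrophil list was mixed. Of its 13 probes, 8 were higher and 1 lower in TET2KD than in WT, 4 were higher and 5 lower in JAK2V617F (median log2 difference -0.68), and 8 were higher and 1 lower in the double mutant (median 1.37), with summed signals of 16952%, 14802%, 21073% and 10255% of P75 in TET2KD, JAK2V617F, the double mutant and WT. The early granule gene Mpo also stood above the other arrays in those with JAK2V617F, on both probes. It read 7886% and 4340% of P75 in the double mutant, 6629% and 3941% in JAK2V617F, 3429% and 2520% in TET2KD and 2402% and 900% in WT. The double mutant and JAK2V617F again differed by less than 2 scanner errors. Elane (neutrophil elastase) was highest in TET2KD (1015%), and the late granule genes Ltf and Ngp were lowest in JAK2V617F. Of the monocyte and macrophage probes, 2 were higher and 2 lower of 7 in TET2KD than in WT, 4 higher and 1 lower of 9 in JAK2V617F, and 7 higher and 0 lower of 10 in the double mutant (median 2.57). F13a1, a transglutaminase of monocytes, read 168% of P75 in TET2KD, 394% in JAK2V617F, 1111% in the double mutant and 10.6% in WT on 1 probe, in WT not well above background. Its other probe read 4.07% in TET2KD, 214% in JAK2V617F, 139% in the double mutant and 4.37% in WT. On that probe TET2KD and WT were not well above background, and JAK2V617F stood above the double mutant. The list's sums of 3397%, 3923%, 5557% and 3075% of P75 rest mostly on a Csf1r probe that differed little between arrays (3003%, 2860%, 2853% and 2395%). The part of these cell types in the Mcpt8 result was not tested.

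Fcer1a, the IgE-binding alpha chain, was well above background in JAK2V617F alone. Its level (probe at mm9 chr1:175151438-175151497, minus strand) was 3.34% of P75 in TET2KD, 16.8 ± 2.96% in JAK2V617F, 11.2% in the double mutant and 3.64% in WT. The JAK2V617F signal lay so close to the detection limit that the fold over WT was only bounded at 1.35 or more, and the difference of the double mutant from JAK2V617F was at least 1.499-fold downward, and neither bound reaches 2-fold. Ms4a2, the beta chain that amplifies the receptor's signal, stayed between 2.88% and 3.93% of P75 on the 4 arrays (probe at mm9 chr19:11691701-11691760, minus strand). Fcer1g, the gamma chain that other Fc receptors share, was detected throughout with 364% of P75 in TET2KD, 304% in JAK2V617F, 841% in the double mutant and 479% in WT, and was 2.76-fold higher in the double mutant than in JAK2V617F. The subunits of the receptor were therefore not detected together in the TET2KD, double mutant or WT arrays, and in JAK2V617F the alpha and gamma chains were detected without the beta chain.

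The kinases and adaptors downstream of the IgE receptor were mostly detected, with 15, 15, 18 and 14 of 21 probes well above background in TET2KD, JAK2V617F, the double mutant and WT. Against WT, 2 were higher and 4 lower of 16 in TET2KD, 4 higher and 5 lower of 16 in JAK2V617F and 6 higher and 4 lower of 18 in the double mutant. The shares over all probes were 16.1% to 17.6% higher and 16.4% to 17.0% lower. Btk, a Tec family kinase, read 17.3% of P75 in TET2KD, 79.7% in JAK2V617F, 396% in the double mutant and 64.0% in WT on 1 probe, but 238%, 124%, 88.3% and 202% on the other. Lyn, the kinase that phosphorylates the receptor, had no signal well above background. Cd200r3, Enpp3 and Mrgprb1, surface markers of basophils and mast cells, were also not well above background on any array, and Mrgprb2 reached 11.7% of P75 in JAK2V617F and was detected there alone. Other genes of the same list of receptor and surface genes were detected on all arrays, namely Fcer1g, Cd63, Cd69, Cd33 and Lilrb4a on 1 probe. In total 8 of its 11 genes with a probe were detected on some array. Against WT, 2 of its probes were higher and 1 lower of 6 in TET2KD. In JAK2V617F 4 were higher and 1 lower of 10, and in the double mutant 3 were higher and 1 lower of 8.

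Il1rl1 (also called ST2), which binds interleukin-33 on mast cells, basophils and type 2 innate lymphoid cells and is also made as a soluble decoy, gave a signal on 1 of its 3 probes and on 1 array. The probe at base 4998 of transcript variant 1 (mm9 chr1:40522187-40522246, plus strand) read 3.08% of P75 in TET2KD, 79.8 ± 8.29% in JAK2V617F, 2.30% in the double mutant and 2.68% in WT. It was at least 6.43-fold higher in JAK2V617F than in WT and at least 7.29-fold lower in the double mutant than in JAK2V617F, and with normexp these were 1.16 and -1.31 on the log2 scale. The probe at base 2825 of the same variant (mm9 chr1:40520014-40520073), which starts 2173 bases upstream, read 3.69% of P75 in TET2KD, 4.82% in JAK2V617F, 2.45% in the double mutant and 2.92% in WT, none of them well above background. The probe of variant 2 (mm9 chr1:40504769-40504828) lay between 2.57% and 3.53% of P75. The Il1rl1 difference therefore rests on the probe at base 4998, without a matching signal from the probe before it, and what sets the probes apart was not tested.

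Il1rap, the co-receptor chain that Il1rl1 needs to signal, was well above background on no array with any of its 3 probes. Il18r1, a related receptor chain encoded near Il1rl1, read 14.6% of P75 in TET2KD, 147% in JAK2V617F, 185% in the double mutant and 57.5% in WT on 1 probe and 9.13%, 56.2%, 21.2% and 13.6% on the other. On both probes it was at least 2.55-fold higher in JAK2V617F than in WT. Markers of type 2 innate lymphoid and T cells gave summed signals of 845% of P75 in TET2KD, 671% in JAK2V617F, 853% in the double mutant and 784% in WT, with 7, 5, 9 and 7 of 13 probes detected, and 1 probe of the T cell gene Cd4 gave 488%, 382%, 477% and 467% of these sums. The members differed among themselves. Gata3, a factor of type 2 lymphoid and T cells, was highest in JAK2V617F, with 34.8% of P75 in TET2KD, 82.3% in JAK2V617F, 28.0% in the double mutant and 42.4% in WT. On 1 of its 2 probes Tcf7 was detected in JAK2V617F (35.3%), and likewise in the double mutant (49.6%) and WT (34.2%). Rora and Areg were not well above background in JAK2V617F. The part of these cells in the Il1rl1 signal was not tested.

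**Figure D3:**
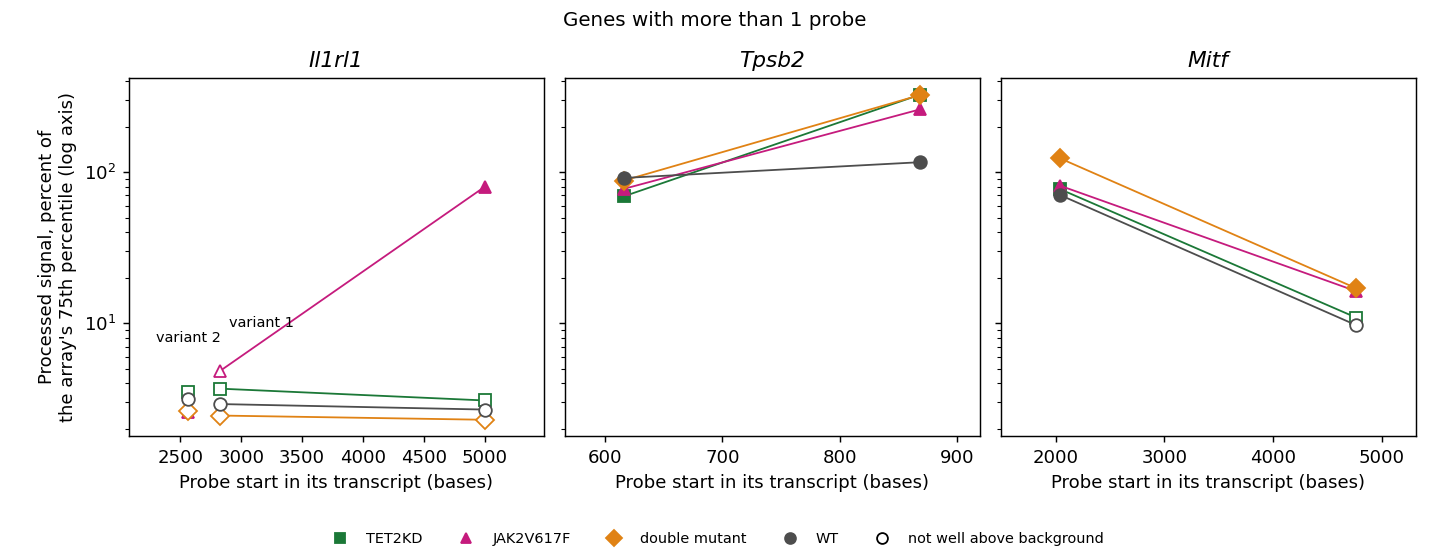
Signal of the probes of Il1rl1, Tpsb2 and Mitf against the start of the probe in its transcript, as percent of the array's 75th percentile on a log axis, with open symbols for probes not well above background and lines joining probes of the same transcript. Levels of different probes are not comparable, but the order of the arrays changes between the Tpsb2 probes, and the JAK2V617F signal of Il1rl1 appears at base 4998 and not at base 2825.

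Hdc, which makes histamine and is also known from immature myeloid cells, was detected on all arrays. Its level (probe at mm9 chr2:126419516-126419575, minus strand) was 86.5 ± 9.40% of P75 in TET2KD, 30.6 ± 4.05% in JAK2V617F, 165 ± 16.8% in the double mutant and 43.3 ± 5.39% in WT. The arrays with the TET2 knock-down were the high ones, on either JAK2 background. Hdc was 3.82-fold higher in the double mutant than in WT (log2 difference 1.93 ± 0.23) and 5.405-fold higher than in JAK2V617F (2.43 ± 0.24). TET2KD stood above WT by 0.998 ± 0.24 on the log2 scale, just short of 2-fold, and the double mutant above TET2KD by 0.94 ± 0.21. JAK2V617F and WT differed by -0.50 ± 0.26, within 2 scanner errors. The differences of the double mutant from WT and from JAK2V617F were 1.15 and 1.39 with normexp, more than 2-fold. Those of TET2KD from WT and of the double mutant from TET2KD shrank to 0.50 and 0.65.

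Among 16 probes of other genes for mediator synthesis and storage, 1 was higher and 4 were lower of 13 in TET2KD than in WT. In JAK2V617F 3 were higher and 3 lower of 14, and in the double mutant 2 were higher and 4 lower of 14. All probes together gave 16.1% to 17.6% higher and 16.4% to 17.0% lower. Slc18a2, the vesicle transporter that loads histamine and serotonin into granules, did not follow Hdc: its probes read 252% and 123% of P75 in TET2KD, 93.2% and 123% in JAK2V617F, 78.4% and 41.6% in the double mutant and 579% and 241% in WT. In the double mutant it was 7.39-fold and 5.80-fold lower than in WT, while Hdc was higher. Hpgds, which makes prostaglandin D2, was detected in WT alone (35.9% of P75). Alox5, of the leukotriene path, read 3.12% of P75 in TET2KD, where it was not well above background, 57.2% in JAK2V617F, 12.9% in the double mutant and 14.4% in WT. Ddc, an aromatic amine decarboxylase, was higher in the double mutant on 1 of its 2 probes, with 84.4% of P75 against 3.11% in WT (at least 6.80-fold).

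Mitf was described by 2 probes of the same transcript. At base 2038 (mm9 chr6:97968501-97968560, plus strand) it read 77.1 ± 8.42% of P75 in TET2KD, 81.3 ± 8.48% in JAK2V617F, 123 ± 12.6% in the double mutant and 70.6 ± 7.66% in WT. The double mutant was above each of the others by more than 2 scanner errors, 1.75-fold over WT (log2 difference 0.81 ± 0.21), 1.52-fold over JAK2V617F (0.60 ± 0.21) and 1.60-fold over TET2KD (0.68 ± 0.22), all short of 2-fold. At base 4766 (mm9 chr6:97971229-97971288) it read 10.9% in TET2KD, 16.3 ± 3.001% in JAK2V617F, 17 ± 3.099% in the double mutant and 9.69% in WT, and was well above background in JAK2V617F and the double mutant. At base 4766 the double mutant and JAK2V617F differed by less than their errors, and TET2KD and WT could not be ranked there.

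The 17 transcription factors listed for comparison were all detected on every array, on 24 of 24 probes. Gata1 read 17.6% of P75 in TET2KD, 193% in JAK2V617F, 170% in the double mutant and 454% in WT, so that it was 25.8-fold lower in TET2KD than in WT and 2.68-fold lower in the double mutant. TET2KD, the array lowest for Gata1, had Prss34 not well above background, a Cpa3 level close to that of WT and an Hdc level above that of WT. The Gata1 level rests on 1 probe, and the part of Gata1 in the levels of these genes was not tested. Gata2, needed for mast cell and basophil precursors, read 638%, 942%, 399% and 616% in the same order of arrays, and was 2.36-fold lower in the double mutant than in JAK2V617F. Cebpa, which favours basophils over mast cells, read 472% in TET2KD, 1411% in JAK2V617F, 566% in the double mutant and 215% in WT. Tfe3, a close relative of Mitf, was lower in JAK2V617F than in WT on both probes, by 7.33-fold and 3.104-fold. Of the 24 probes, 7 were higher and 5 lower in TET2KD than in WT, 3 higher and 6 lower in JAK2V617F, and 5 higher and 4 lower in the double mutant. Over all probes, 17.6%, 16.1% and 16.3% were higher and 17.0%, 16.4% and 16.7% lower in these comparisons.

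Kit, the receptor for stem cell factor on which mast cells depend, read 1410% of P75 in TET2KD, 761% in JAK2V617F, 517% in the double mutant and 1820% in WT, and was 2.39-fold lower in JAK2V617F than in WT and 3.52-fold lower in the double mutant. Kit is also a marker of the sort. Il3ra, the alpha chain of the receptor for the basophil growth factor interleukin-3, read 170%, 113%, 183% and 617% and was lower in each mutant than in WT. Of the 13 probes for growth factor receptors, 1 was higher and 2 lower of 9 in TET2KD than in WT, 3 higher and 2 lower of 9 in JAK2V617F, and 1 higher and 2 lower of 10 in the double mutant. Across all probes, 16.1% to 17.6% were higher and 16.4% to 17.0% lower.

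**Figure D4:**
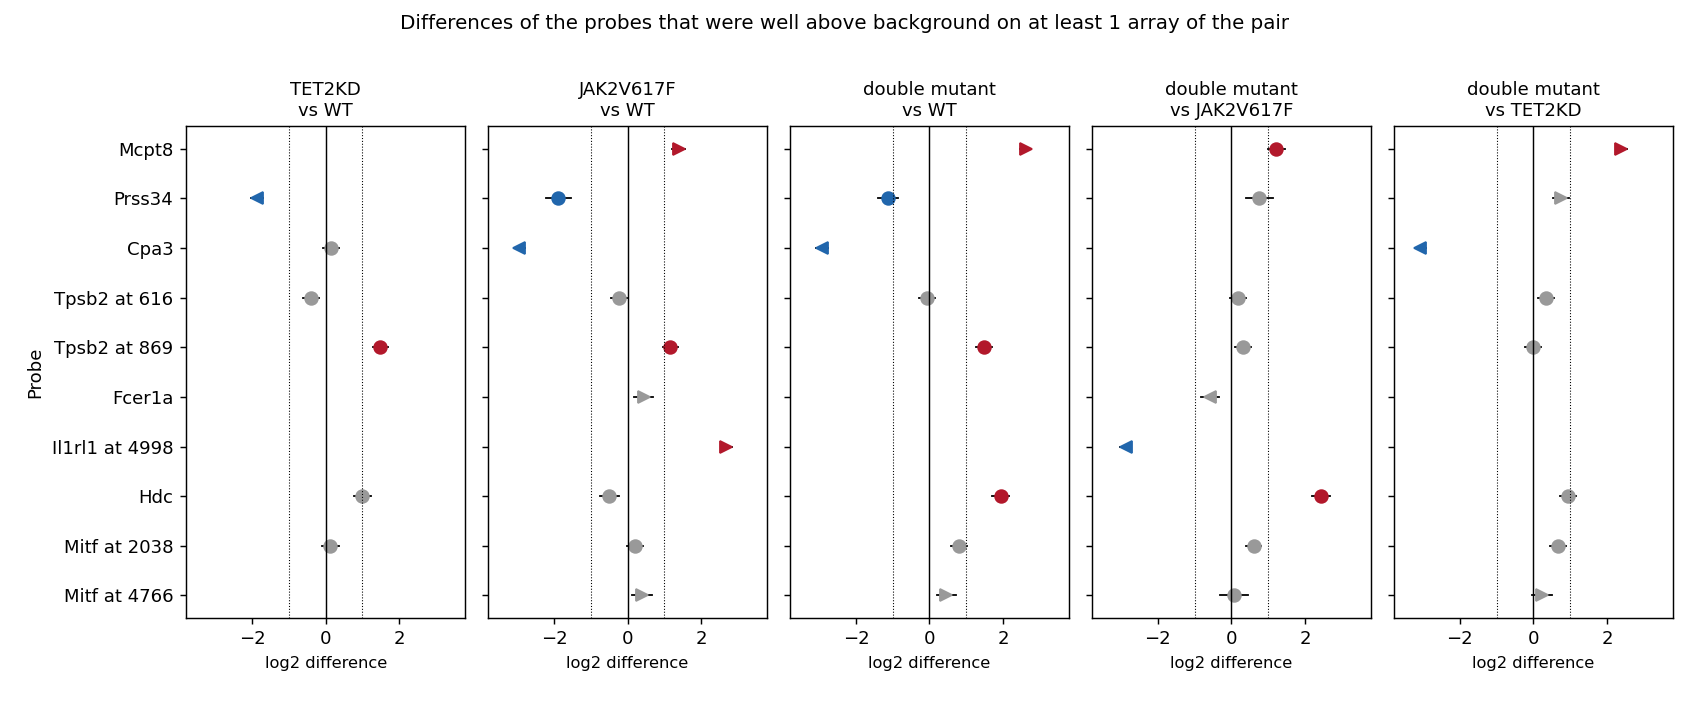
Log2 differences of the probes that entered each of the 5 comparisons, with bars for the scanner error, triangles for bounds and dotted lines at 2-fold, red for higher and blue for lower. Mcpt8 is to the right in every comparison it entered, Cpa3 is to the left wherever JAK2V617F is added, and Tpsb2 at 869 is past 2-fold against WT in all mutants.

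Counted by comparison, 1 of the 6 probes that entered was higher in TET2KD than in WT (Tpsb2 at 869) and 1 was lower (Prss34), against 17.6% higher and 17.0% lower over all probes. The remaining 8 of 14 probes were not well above background on either array. Of 10 probes in JAK2V617F against WT, 3 were higher (Mcpt8, Il1rl1 at 4998 and Tpsb2 at 869), against 16.1% of all probes, and 2 were lower (Cpa3 and Prss34), against 16.4%. Of 8 in the double mutant against WT, 3 were higher (Mcpt8, Hdc and Tpsb2 at 869), against 16.3% of all probes, and 2 were lower (Cpa3 and Prss34), against 16.7%. Adding the TET2 knock-down to JAK2V617F gave 2 higher of 9 (Mcpt8 and Hdc), against 13.4%, and 1 lower (Il1rl1 at 4998), against 13.7%. Adding JAK2V617F to the TET2 knock-down gave 1 higher of 8 (Mcpt8), against 15.6%, and 1 lower (Cpa3), against 16.9%. A probe that entered through 1 array had to be bright there, and with so few probes these shares cannot be set apart from the background. The median log2 differences of the probes that entered were 0.14, 0.30, 0.63, 0.31 and 0.51 in these 5 comparisons, beside -0.02, -0.01, 0.00, -0.02 and 0.00 over all probes. The comparisons share arrays, so they are not independent of each other.

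**Figure D5:**
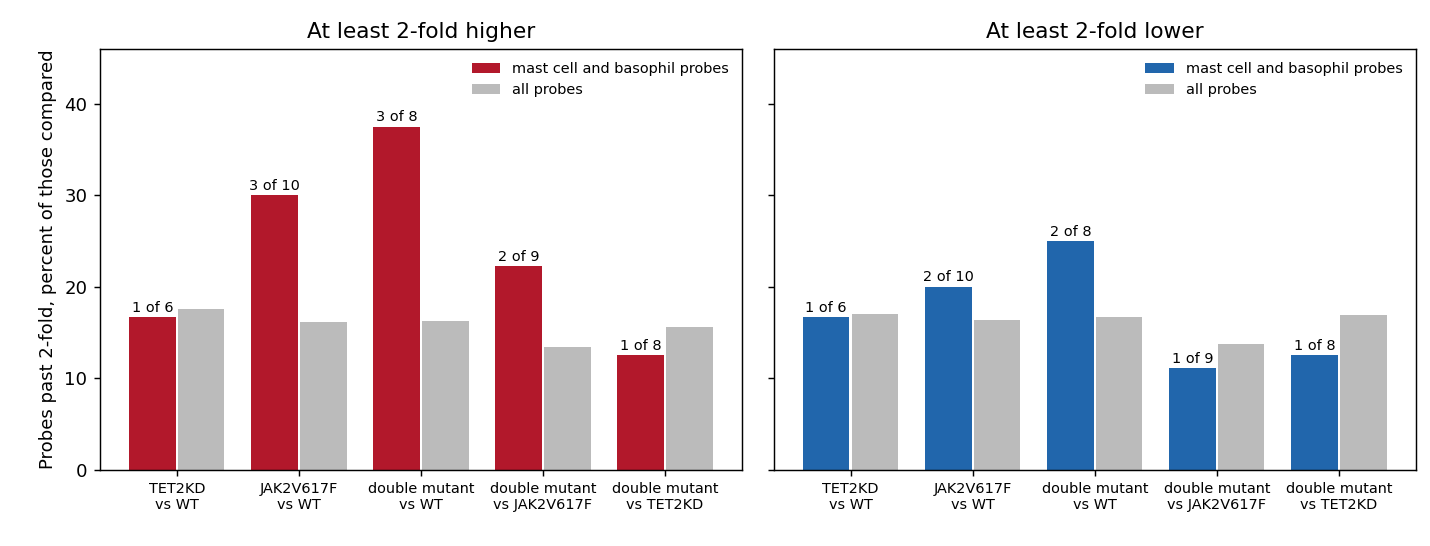
Percent of the probes compared that were at least 2-fold higher (left) or lower (right), for the mast cell and basophil probes and for all probes, in each of the 5 comparisons. The bars of the 14 probes rest on 6 to 10 probes each, and the highest is 3 of 8 for the double mutant against WT.

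For the probes detected on all 4 arrays, the genes with the most similar pattern were found by the distance between their log2 values over the arrays, each centred on its own mean, among 12679 probes at most. Hdc was closest to Zfp472 (distance 0.15), Fcgr4 (0.19) and Oasl2 (0.24), of which Fcgr4, an activating Fc receptor of myeloid cells, read 102% of P75 in TET2KD, 30.8% in JAK2V617F, 186% in the double mutant and 44.0% in WT. Mitf at 2038 was closest to Kcna5 (0.04), Tmem101 (0.06) and Xab2 (0.06). The Tpsb2 probes shared no neighbour, with Parp1 (0.11), Nelfe (0.12) and Pip4k2c (0.13) nearest at base 869 and Fbn2 (0.02), Imp3 (0.06) and Th (0.07) nearest at base 616. With 4 points per probe such closeness is a description.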

How the data were processed

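Per the labels' protocols, Trizol RNA of sorted LSK cells went through NuGEN Ovation Pico amplification and Cy3 labelling and was hybridised to 1-colour Agilent 60-mer arrays. Per the file headers, the deposited intensity of each spot is the processed signal of Agilent Feature Extraction 10.7.3.1, background-subtracted and detrended, and probe coordinates are mm9. The deposited series matrix holds log2 values that equalled log2 of that signal minus a constant per array (0 of 55249 probes off by more than 0.001). Its column medians were -2.63 in TET2KD, -2.60 in JAK2V617F and the double mutant and -2.64 in WT.

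Control spots and outlier flags (162 to 199 per array) were left out, log2 signals were scaled to each array's 75th percentile, and spots of 1 probe were averaged. No spot was saturated. Repeated spots varied by an SD of 0.23 to 0.27 (log2) below the 75th percentile and 0.07 to 0.09 at or over it. The number of arrays, 1 per group, limits the precision. The error of a difference combines the software's errors of both spots, or of the bright spot for a bound.

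The genes and lists were chosen with earlier results of these data known. All probes of the 10 genes are named, with Tet2, Jak2 and the 3 nearest genes in pattern. A rule then offered up to 2 probes each way per list and comparison, the largest of at least 2-fold, of which the text names part. Genes of these lists that are described for their role or detection, and not by that rule, were chosen after their values were seen. Alternatives were normexp (offset 50), quantile, detected-median and cyclic loess scaling, stricter and absent filters, the matrix and a 3-fold threshold. The steps were tested on simulated data. Python 3.11.15, pandas 2.3.3, R 4.3.3 and limma 3.58.1 were used.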

Additional observations from a re-analysis of the deposited data

Results flagged for a closer look

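Prss34 stood out because the effect of each lesion pointed in opposite directions on its 2 backgrounds. The TET2 knock-down difference was -1.86 on the log2 scale in TET2KD against WT, a bound, and 0.76 in the double mutant against JAK2V617F. The JAK2V617F difference was -1.88 in JAK2V617F against WT and 0.75 in the double mutant against TET2KD, again a bound. With normexp both positive values nearly vanished, to 0.16 against JAK2V617F and 0.04 against TET2KD. With 1 array per genotype this difference between backgrounds was not tested. The same WT array stands in both negative values and the same double mutant array in both positive ones.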

How the results depend on the processing

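Of the 41 log2 differences of the mast cell and basophil probes, 17 reached 2-fold, and none of these changed sign under any of the alternatives that gave it a value. All 17 stayed past 2-fold with cyclic loess and quantile scaling. They also did with the series matrix, detected-median scaling and no filter on dim probes, which say little about stability. The matrix and detected-median scaling shift all differences of a comparison by the same amount. Without the filter a bound can only grow and the other differences are unchanged, so that outcome was fixed in advance. With normexp 9 of the 17 did, and the lost ones were those of Prss34, Mcpt8 and Tpsb2 at 869 given with their values above. Only 8 of the 17 had both arrays above background, so the others, which are bounds, carry no measured value on the dim side. Among differences under 2-fold, those of Tpsb2 at 869 (-0.08 to 0.03) and Mitf at 4766 (-0.02 to 0.64) between the double mutant and TET2KD changed sign.

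The counts over all probes followed the filter and the background correction. In the order TET2KD, JAK2V617F and the double mutant against WT, then the double mutant against JAK2V617F and against TET2KD, normexp gave 2258, 2175, 2096, 1414 and 2071 probes higher and 2481, 2176, 2387, 1613 and 2261 lower. Probes above background on both arrays gave 3277, 3212, 3155, 2721 and 3028 higher and 3252, 3401, 3448, 2785 and 3366 lower. No filter on dim probes gave 8762, 9032, 8714, 7924 and 8624 higher and 9220, 9238, 9760, 8582 and 9066 lower, and shifted the median of all probes by up to -0.23 (double mutant against TET2KD). A 3-fold threshold gave 3222, 2883, 2886, 2229 and 2588 higher and 2950, 2975, 3084, 2314 and 3029 lower.

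Of the counts of mast cell and basophil probes, normexp left 0 lower in TET2KD against WT and 1 higher and 1 lower in JAK2V617F against WT. In the double mutant it left 2 higher and 1 lower against WT, 1 higher against JAK2V617F and 0 higher against TET2KD. Requiring both arrays above background left 0 lower in TET2KD against WT and 1 higher and 1 lower in JAK2V617F against WT. In the double mutant this left 2 higher and 1 lower against WT, 0 lower against JAK2V617F, and 0 higher and 0 lower against TET2KD. No filter gave 4 higher and 3 lower in JAK2V617F against WT and 4 higher in the double mutant against WT. It also gave 2 lower in the double mutant against JAK2V617F, added Cma1 to those higher there, and gave 3 higher in the double mutant against TET2KD. The 3-fold threshold left 0 higher in TET2KD against WT, 1 higher in JAK2V617F against WT, 1 lower in the double mutant against WT and 1 higher in the double mutant against JAK2V617F. Tpsb2 at 869 (2.79-fold) was no longer among those higher in the double mutant against WT. No paired analysis was possible because each genotype has 1 array. Signal over background limits the probes near the floor most, and the cause of the normexp changes was not tested.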

Other observations

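Cytokine genes that mast cells and basophils can express were mostly near background. Il13, Il3 and Csf2 were well above background on no array, Il4 was detected in WT alone (15.4% of P75) and Il6 in the double mutant alone (12.6%). Ccl3 and Ccl4, chemokines of many myeloid cells, were detected throughout and were lowest in JAK2V617F, with 249% and 234% of P75 there and 534% and 486% in WT. Osm (oncostatin M), a known target of STAT5, was detected in the arrays with JAK2V617F, with 216% of P75 in JAK2V617F and 38.8% in the double mutant, against 3.34% in TET2KD and 4.28% in WT, both not well above background. It was at least 17.4-fold higher in JAK2V617F than in WT.

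Marker lists of more distant cell types differed between arrays as well. The 8 B cell probes summed to 231% of P75 in TET2KD, 382% in JAK2V617F, 233% in the double mutant and 1872% in WT, where 1 Cd79a probe gave 1648%. The other Cd79a probe ran the other way, with 12.2% of P75 in TET2KD, 117% in JAK2V617F, 113% in the double mutant and 7.31% in WT, where it was not well above background, as in TET2KD. The 6 red cell probes summed to 2328%, 98.5%, 1080% and 155%, and the 8 megakaryocyte probes to 2739%, 1651%, 560% and 2488%, in the same order of arrays.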
